A study of Mus musculus with 9 samples.

Results

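The genes described here encode the classic axon guidance ligands and their receptors: ephrins and Eph receptors, semaphorins of classes 3 to 7 with plexins and neuropilins, Slits and Robos, and netrins with Unc5 receptors. They were chosen by gene symbol, whatever their level, which gave 67 genes on 68 rows (Epha5 has 2 rows) of the 48445 gene names in the deposited table. Of these, 34 rows were ligands and 34 were receptors.

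RNA-seq was made from 3 kinds of mouse colonies, with 3 libraries each, after embryonic fibroblasts had been reprogrammed and cultured for 75 days. The fibroblasts were transduced with lentivirus, and reprogramming medium held 1 ug/mL doxycycline for all groups. YAP colonies were non-pluripotent, YAPmCherry+ colonies from cultures given Yes-associated protein (YAP), and they were kept on feeder cells in ES cell medium with 1 ug/mL doxycycline. YAP-culture iPSCs were Oct4:GFP+YAPmCherry+ induced pluripotent stem cells from YAP cultures, which by their titles no longer overexpressed YAP, although the column headings mark them YAP+. Control iPSCs were Oct4:GFP+ cells from cultures given an empty vector. Both kinds of iPSC were grown on feeder cells in ES cell medium. Nothing in the labels says that the replicates came from different cultures, so the p-values below reflect the spread among these libraries alone, which may be technical.

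As background, guidance ligands steer growing axons, migrating cells and sprouting vessels by contact or over short distances. Ephrins sit in the membrane of one cell and bind Eph receptor tyrosine kinases on its neighbour, and both cells can respond. Semaphorins signal through plexins, with neuropilins as co-receptors for most secreted ones, Slits repel through Robo receptors, and netrins attract or repel through Dcc, neogenin and Unc5 receptors. The same ligands and receptors act outside the nervous system, in epithelia, vessels and early embryos.

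Values are FPKM, fragments per kilobase of transcript, adjusted for how many fragments each library mapped. FPKM is scaled to length, so levels of different genes can be set side by side. The read depth of these libraries is unknown. Differences are on the log2(FPKM + 1) scale, which understates the change of genes with low values. A gene was called, and is said to have risen or fallen, when the Benjamini-Hochberg adjusted p of limma over all 13808 tested rows was below 0.05 and its log2 fold change was at least 1 in size. Every adjusted p below is of this kind unless another fit is named.

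Guidance genes were expressed at a higher summed level in the YAP colonies than in both kinds of iPSC. All 68 rows summed to 335, 355 and 371 FPKM in the YAP colonies, 125, 120.3 and 196 FPKM in the YAP-culture iPSCs and 190.2, 159 and 159.7 FPKM in the control iPSCs, so the colonies lay above every iPSC library. Ligands averaged 172 ± 2.15 FPKM in the YAP colonies, 58.1 ± 15.3 FPKM in the YAP-culture iPSCs and 73.1 ± 9.81 FPKM in the control iPSCs (SD, n = 3 each). Receptors averaged 182 ± 19.7 FPKM in the YAP colonies, 88.8 ± 26.9 FPKM in the YAP-culture iPSCs and 96.6 ± 8.17 FPKM in the control iPSCs. In bulk RNA, fewer cells of a type and less RNA per cell cannot be told apart. A group mean of at least 10 FPKM was reached by 11 rows in the YAP colonies, 3 in the YAP-culture iPSCs and 5 in the control iPSCs. A pair of genes carried a large share of the colony sum: the receptor gene Plxnb2 held 13.9% of it and the ligand gene Efnb1 held 11.3%, against 7.11% and 0.866% of the sum in the YAP-culture iPSCs.

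A row was tested if its mean over the 9 libraries reached 1 FPKM, which left 40 rows for testing and put 28 rows, of 27 genes, below it. In the YAP colonies against the YAP-culture iPSCs, 17 tested members were higher, 2 were lower and 21 were not called. Across all tested rows, 30.3% were called in this comparison, 15.8% higher and 14.5% lower. The median log2 fold change of the tested members was 0.83, against 0.02 over all tested rows. In the YAP colonies against the control iPSCs, 16 members were higher, 6 were lower and 18 were not called. The shares over all tested rows were 31.8% in either direction, 14.9% higher and 17% lower. Here the median was 0.60 for the members and -0.07 for all tested rows. Both comparisons use the same 3 colony libraries, so their values stand side by side below and are not independent of each other. A member could pass the filter through the colonies alone, which favours calls in that direction among genes near 0 in the iPSCs. Sema3e, Sema5b, Sema6a, Efna5, Plxna2, Slit3 and Ntn4, all called higher in both comparisons, averaged below 1 FPKM in both iPSC groups.

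Groups that did not overlap were also counted. All 3 YAP colonies lay above all 3 YAP-culture iPSCs for 24 of the 40 tested members, against 31.2% of all tested rows, and below them for 8, against 31.5%. The YAP colonies lay above all control iPSCs for 23 members, against 34.1%, and below them for 9, against 39.2%. Among ligands, 11 of 24 tested rose and 1 fell in the colonies against the YAP-culture iPSCs, and 10 rose and 3 fell against the control iPSCs. Among receptors, 6 of 16 tested rose and 1 fell against the YAP-culture iPSCs, and 6 rose and 3 fell against the control iPSCs.

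**Figure D1:**
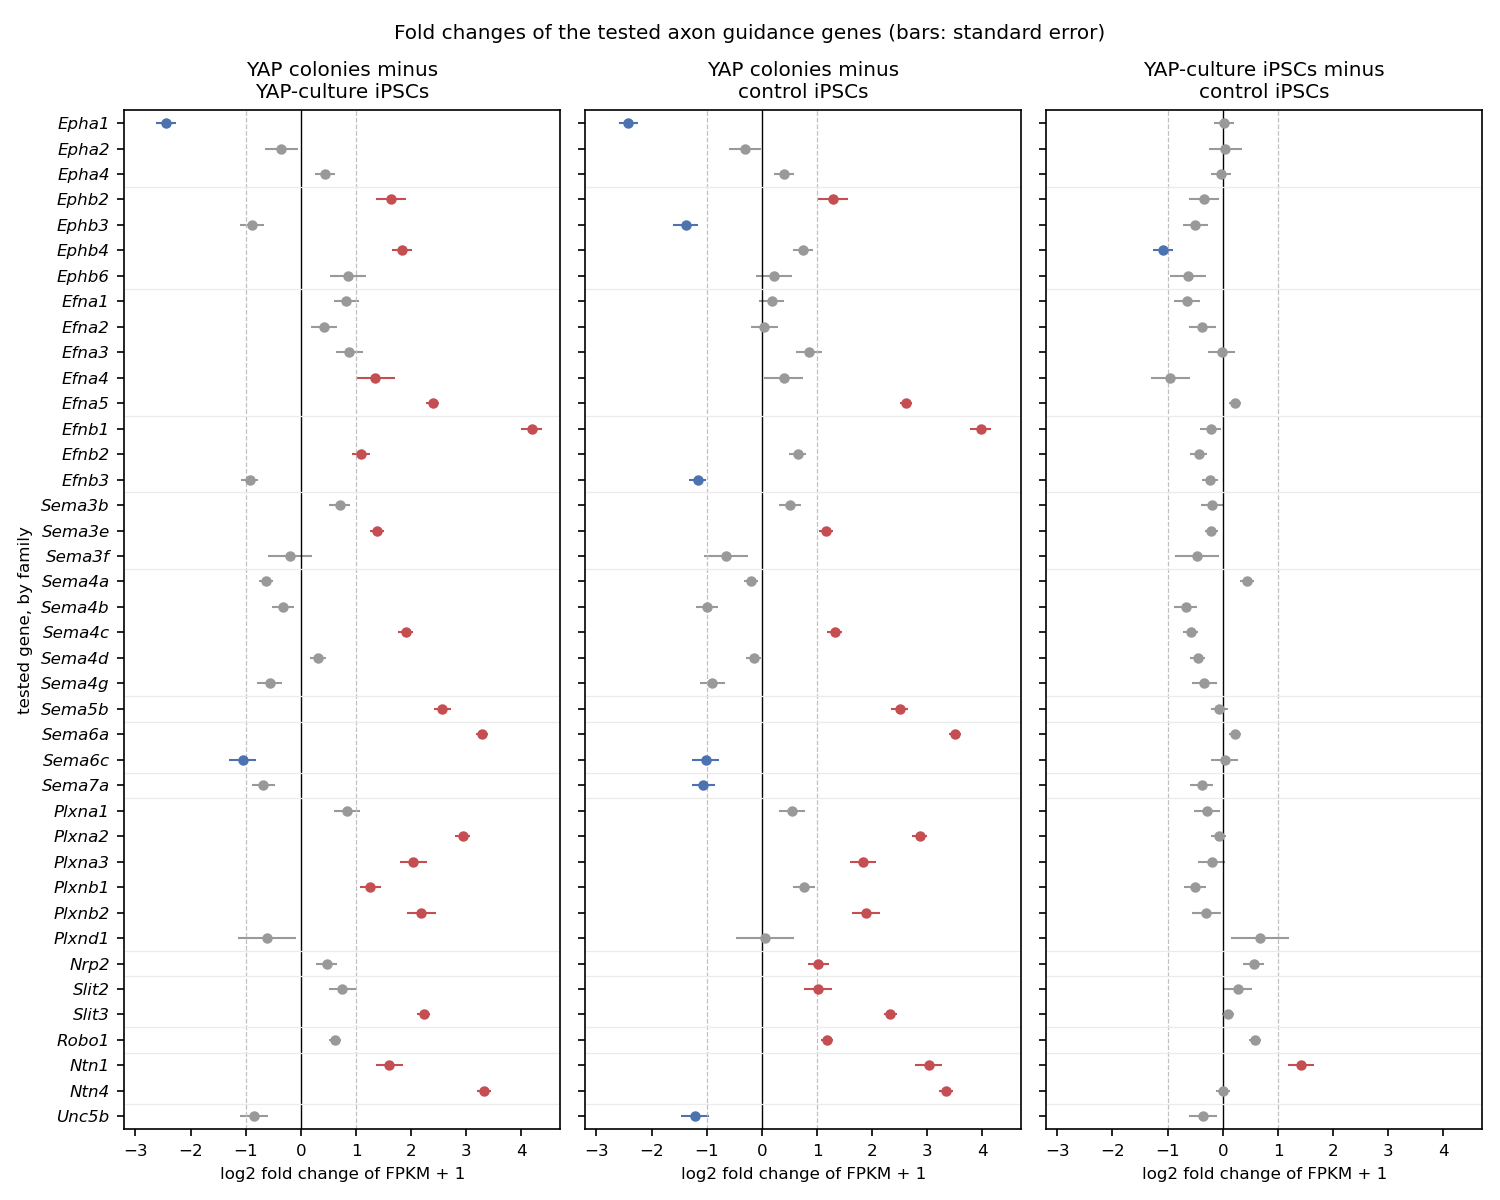
Log2 fold changes of FPKM + 1 (x axis) of the 40 tested guidance genes, by family (y axis), with bars for the standard error. Panels show the YAP colonies minus YAP-culture iPSCs, the YAP colonies minus control iPSCs and the YAP-culture iPSCs minus control iPSCs. Red marks genes called higher, blue genes called lower and grey genes not called, with dashed lines at the fold threshold of 1. Efnb1 lies farthest to the right in both colony panels, at 4.19 and 3.97, and Epha1 farthest to the left, at -2.44 and -2.42.

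Other facts of the libraries that moved with the colonies are given here, and their part in the results was not tested. Doxycycline in the ES cell medium is stated for the YAP colonies alone, so it cannot be told apart from the kind of colony. Of 8 pluripotency markers 7 fell in the colonies in both comparisons, with Zfp42 at 0.355 ± 0.179 FPKM in the YAP colonies, 283 ± 18.7 FPKM in the YAP-culture iPSCs and 311 ± 10.8 FPKM in the control iPSCs. The eighth, Pou5f1, which encodes Oct4, went the other way, at 281 ± 13.9 FPKM in the YAP colonies, 156 ± 50.6 FPKM in the YAP-culture iPSCs and 203 ± 21.4 FPKM in the control iPSCs, with all colonies above all iPSCs and no call (log2 fold changes of 0.89 and 0.47). Whether the Pou5f1 reads came from the cells' own gene was not tested. Nanog, among the 7 that fell, averaged 132 ± 22.6 FPKM in the YAP colonies, 308 ± 17.4 FPKM in the YAP-culture iPSCs and 386 ± 17.5 FPKM in the control iPSCs. The other 6 markers averaged at most 4.11 FPKM in the colonies, which are labelled non-pluripotent. Yap1, which encodes YAP, averaged 61.03 ± 1.97 FPKM in the YAP colonies. In the YAP-culture iPSCs it averaged 36.1 ± 3.36 FPKM and in the control iPSCs 42.5 ± 2.86 FPKM, with no call in any comparison. Whether the YAP vector was still active in the YAP-culture iPSCs was not tested. The summed level of 11 fibroblast or feeder markers was 39.1 to 46.1 FPKM in the YAP colonies, 5.44 to 10.9 FPKM in the YAP-culture iPSCs and 5.62 to 8.01 FPKM in the control iPSCs, and all 4 tested (Col1a1, Col3a1, Dcn and Thy1) rose in both comparisons. Of the 7 below the filter, Postn and Col1a2 lay above all iPSC libraries in the colonies, and Pdgfrb and Twist1 lay below them, at 0.315 ± 0.0538 and 0.0731 ± 0.0250 FPKM in the YAP colonies, 0.905 ± 0.158 and 0.773 ± 0.282 FPKM in the YAP-culture iPSCs and 0.931 ± 0.131 and 0.485 ± 0.0885 FPKM in the control iPSCs. For 11 neural markers the sum was 62.5 to 93.8 FPKM in the YAP colonies, 99.7 to 120.3 FPKM in the YAP-culture iPSCs and 109 to 135 FPKM in the control iPSCs. Stmn2 made up most of this sum in the YAP-culture and control iPSCs, at 106 ± 10.7 and 116 ± 12.2 FPKM. In the YAP colonies it averaged 8.64 ± 4.42 FPKM, so the order of the sums is that of Stmn2. Map2, the largest part of the colony sum, averaged 42.2 ± 12.5 FPKM there, against 2.40 ± 0.313 and 1.36 ± 0.369 FPKM in the iPSCs. Of the 4 neural markers tested, 3 rose in both comparisons, Map2 and Pax6 among them, and Stmn2 fell. Of the neural markers below the filter, Dcx and Neurog2 lay above all iPSC libraries. Elavl3, Rbfox3 and Neurod1 lay below them, and Neurod1 was listed at 0 in all colonies. Of 7 endothelial markers, whose sum was 42.4 to 45.3 FPKM in the YAP colonies, 36.3 to 48.2 FPKM in the YAP-culture iPSCs and 38.7 to 46.7 FPKM in the control iPSCs, Tek rose, Pecam1 and Vwf fell, and Emcn was listed at 0 in every library. The 4 leukocyte markers summed to 116 to 139 FPKM in the YAP colonies, 35.4 to 69.3 FPKM in the YAP-culture iPSCs and 26.2 to 33.9 FPKM in the control iPSCs, in the colonies mostly Laptm5, which rose in both comparisons. Cd68 fell in both, at 2.80 ± 0.590 FPKM in the YAP colonies, 13.7 ± 5.45 FPKM in the YAP-culture iPSCs and 13.97 ± 3.28 FPKM in the control iPSCs, and Ptprc stayed at or below 0.0989 FPKM. The kinds of iPSC library were not clearly apart: for 5 of the 6, the most similar library of another group correlated better (over tested rows) than the least similar of their own. The gap was widest for YAP-culture iPSC replicate 3, with r = 0.969 to a control library and 0.934 to one of its own group, and it had the highest value of its group for 31 of 40 tested members, against 50.3% of all tested rows.

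Promoter sequence was examined because YAP acts through TEAD factors, which read the letters GGAATG or, on the other strand, CATTCC. RefSeq windows of 300 bases (250 before the gene start and 50 after it, GRCm38.p6) matched 58 of the 67 genes, in 74 windows. The letters were in 8 of the 74 windows (10.8%), against 14.7% of all 32851 windows. They were in 2 of 17 windows of members that rose in the colonies against the YAP-culture iPSCs, those of Efnb2 and Plxnb1, and in 0 of 16 windows of members that rose against the control iPSCs. These windows belong to 15 of the 17 and 14 of the 16 members that rose, and Ntn1 and Sema6a had no window. Of the 6 windows of members that fell against the control iPSCs, 1 held them, that of Epha1, and Efnb3 had no window. The 250 bases before the start are shown 5′ to 3′ for Efnb2, Plxnb1 and Epha1, with the letters in capitals, and for 3 members that rose in both comparisons and hold none. The first matching base lay 105 bases before the start in Efnb2, 148 in Plxnb1 and 161 in Epha1. In 62 of the 74 windows the last 30 bases lay in a GENCODE M21 transcript of the same gene. They did not in the other 12, among them the windows of Efnb1 and Ephb2, whose RefSeq starts lie 69 and 24 bases outside the deposited locus. A match is a description of letters, and no match says only that the letters are not in this window.
Efnb2, chr8:8661243-8661492, minus strand: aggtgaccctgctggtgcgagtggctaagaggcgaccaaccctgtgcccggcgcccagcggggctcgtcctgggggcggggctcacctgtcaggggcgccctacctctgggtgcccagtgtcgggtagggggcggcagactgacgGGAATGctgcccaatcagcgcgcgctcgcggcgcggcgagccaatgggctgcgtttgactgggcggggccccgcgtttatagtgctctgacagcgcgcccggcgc
Plxnb1, chr9:109095186-109095435, plus strand: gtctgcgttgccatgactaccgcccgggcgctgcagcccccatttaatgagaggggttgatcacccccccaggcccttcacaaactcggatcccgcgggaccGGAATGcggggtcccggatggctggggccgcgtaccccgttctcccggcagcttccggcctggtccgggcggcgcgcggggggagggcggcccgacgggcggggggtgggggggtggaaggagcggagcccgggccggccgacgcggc
Epha1, chr6:42373269-42373518, minus strand: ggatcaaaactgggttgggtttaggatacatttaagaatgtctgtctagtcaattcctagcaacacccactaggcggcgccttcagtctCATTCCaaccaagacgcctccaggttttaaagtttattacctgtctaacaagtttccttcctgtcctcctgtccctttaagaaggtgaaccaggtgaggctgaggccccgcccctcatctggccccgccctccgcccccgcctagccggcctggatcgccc
Efnb1, chrX:99135811-99136060, plus strand: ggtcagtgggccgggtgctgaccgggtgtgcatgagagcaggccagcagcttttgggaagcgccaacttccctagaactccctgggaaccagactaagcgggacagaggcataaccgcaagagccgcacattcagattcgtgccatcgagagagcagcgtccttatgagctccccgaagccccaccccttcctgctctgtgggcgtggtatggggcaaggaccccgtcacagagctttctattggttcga
Ephb2, chr4:136836013-136836262, minus strand: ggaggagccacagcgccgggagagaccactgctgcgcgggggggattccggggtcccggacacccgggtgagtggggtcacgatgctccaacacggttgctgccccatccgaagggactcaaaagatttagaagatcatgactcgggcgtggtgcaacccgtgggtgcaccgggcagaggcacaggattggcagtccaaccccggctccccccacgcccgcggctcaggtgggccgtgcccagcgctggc
Plxna3, chrX:74328816-74329065, plus strand: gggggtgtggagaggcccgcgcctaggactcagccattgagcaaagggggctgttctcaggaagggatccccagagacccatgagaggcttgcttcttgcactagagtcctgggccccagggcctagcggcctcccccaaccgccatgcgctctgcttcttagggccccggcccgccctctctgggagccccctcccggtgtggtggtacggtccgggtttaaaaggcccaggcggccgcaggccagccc
The windows of guidance genes were rich in CG, with a median of 19.5 CG dinucleotides in 300 bases, against 7 over all windows.

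Ephrin-B ligands, which span the membrane and signal into their own cell as well, changed in both directions. Efnb1 (ENSMUSG00000031217, chromosome X, 99136130 to 99148991, mm10) had the largest log2 fold change of all tested guidance genes in both colony comparisons, on the log2(FPKM + 1) scale. By the ratio of group means alone, Ntn4, which was near 0 in the iPSCs, exceeded it in both comparisons. Sema6a and Efna5 did so against the control iPSCs alone. The level of Efnb1 was 44.6, 40.9 and 34.3 FPKM in the YAP colonies, 0.713, 1.75 and 1.36 FPKM in the YAP-culture iPSCs and 1.52, 1.32 and 2.02 FPKM in the control iPSCs. Every colony library was far above every iPSC library, and the iPSC groups overlapped. The log2 fold change was 4.19 (SE 0.19, adjusted p = 2.78e-07) against the YAP-culture iPSCs. Against the control iPSCs it was 3.97 (SE 0.19, adjusted p = 3.54e-07). Efnb2, known for marking arteries, was 2.72, 2.99 and 3.29 FPKM in the YAP colonies, 0.926, 0.759 and 0.937 FPKM in the YAP-culture iPSCs and 2.17, 1.20 and 1.35 FPKM in the control iPSCs. It rose against the YAP-culture iPSCs by 1.09 on the log2 scale and was not called against the control iPSCs at 0.65, although the groups did not overlap in either case. Efnb3 had the opposite order, with 0.700, 0.558 and 0.682 FPKM in the YAP colonies, 1.99, 1.71 and 2.81 FPKM in the YAP-culture iPSCs and 2.96, 2.86 and 2.28 FPKM in the control iPSCs. It fell against the control iPSCs, with a log2 fold change of -1.16 (SE 0.15, adjusted p = 1.87e-04), and was short of the fold threshold against the YAP-culture iPSCs at -0.93, or past it at -1.04 without YAP-culture iPSC replicate 2. Quantile normalization and the GC correction took the call against the control iPSCs away, at -0.82 and -0.89.

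Efnb1 is X-linked, as are Plxna3 and Plxnb3. Xist, the RNA that coats an inactive X chromosome, was 166 ± 32.2 FPKM in the YAP colonies, 1.09 ± 0.493 FPKM in the YAP-culture iPSCs and 0.502 ± 0.0638 FPKM in the control iPSCs. Of the 3 X-linked members, Efnb1 and Plxna3 rose in the colonies. Plxnb3 was below the filter and not tested. It was at most 0.0132 FPKM in the YAP colonies, 0.204 to 0.225 FPKM in the YAP-culture iPSCs and 0.114 to 0.158 FPKM in the control iPSCs. Whether a difference in X chromosome state or sex between the cells bears on Efnb1 was not tested.

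Ephrin-A ligands, which are anchored to the membrane by a lipid, were all 5 tested. Against the YAP-culture iPSCs 2 rose and 3 were not called, and against the control iPSCs 1 rose and 4 were not called. Efna5, which shapes the retinal map in the brain, had 5.68, 6.62 and 5.75 FPKM in the YAP colonies, 0.365, 0.342 and 0.304 FPKM in the YAP-culture iPSCs and 0.186, 0.119 and 0.129 FPKM in the control iPSCs. No library of any group reached into another group, and the log2 fold change was 2.39 (SE 0.11, adjusted p = 3.56e-07) for the colonies against the YAP-culture iPSCs. Against the control iPSCs it was 2.61 (SE 0.11, adjusted p = 1.98e-07). Efna4 was the most abundant ephrin-A in every group, with 10.6, 18.2 and 14.7 FPKM in the YAP colonies, 4.13, 2.86 and 9.60 FPKM in the YAP-culture iPSCs and 13.1, 9.44 and 9.40 FPKM in the control iPSCs. Its colonies overlapped the control iPSCs, and it rose against the YAP-culture iPSCs alone, with a log2 fold change of 1.35 (SE 0.35, adjusted p = 0.00959). Against the control iPSCs the value was 0.39 (SE 0.35, adjusted p = 0.358), not called. Efna3 averaged 6.46 ± 1.06 FPKM in the YAP colonies, 3.19 ± 1.46 FPKM in the YAP-culture iPSCs and 3.12 ± 0.613 FPKM in the control iPSCs. Its colonies lay above both iPSC groups, with log2 fold changes of 0.88 and 0.86 that did not reach the fold threshold, and the first was called at 1.14 without YAP-culture iPSC replicate 3. Efna1 and Efna2 were at most 3.96 and 1.94 FPKM in any library. Efna1, Efna3 and Efna4 lie side by side on chromosome 3, between 89271733 and 89338028, and Efna5 lies on chromosome 17.

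EphB receptors, which bind mainly ephrin-B ligands, differed from one another. Of 4 tested, Ephb2 and Ephb4 rose against the YAP-culture iPSCs, and against the control iPSCs Ephb2 rose and Ephb3 fell. Ephb2 had 10.9, 11.97 and 15.8 FPKM in the YAP colonies, 2.91, 2.19 and 5.97 FPKM in the YAP-culture iPSCs and 5.06, 4.23 and 4.60 FPKM in the control iPSCs. The colonies were above all iPSC libraries, with log2 fold changes of 1.63 (SE 0.27, adjusted p = 7.18e-04) and 1.29 (SE 0.27, adjusted p = 0.00275). Ephb4, the receptor paired with ephrin-B2 in vessels (chromosome 5, 137350109 to 137378669), had 11.9, 15.5 and 17.2 FPKM in the YAP colonies, 3.03, 2.85 and 4.51 FPKM in the YAP-culture iPSCs and 9.48, 7.60 and 8.02 FPKM in the control iPSCs. The 3 groups formed 3 separate steps. The colonies differed from the YAP-culture iPSCs by 1.83 (SE 0.18, adjusted p = 2.87e-05) on the log2 scale. From the control iPSCs they differed by 0.75 (SE 0.18, adjusted p = 0.00575), under the fold threshold. Ephb3 went the other way, with 3.04, 2.79 and 3.21 FPKM in the YAP colonies, 5.31, 4.81 and 10.04 FPKM in the YAP-culture iPSCs and 10.5, 8.53 and 9.34 FPKM in the control iPSCs. It lay lower in all colonies and fell against the control iPSCs, with a log2 fold change of -1.38 (SE 0.22, adjusted p = 6.50e-04). Against the YAP-culture iPSCs the value was -0.88 (SE 0.22, adjusted p = 0.00799), and without YAP-culture iPSC replicate 2 it was called at -1.06. Ephb6, whose kinase domain is inactive, averaged 9.999 ± 2.80 FPKM in the YAP colonies, 5.49 ± 3.32 FPKM in the YAP-culture iPSCs and 8.28 ± 1.18 FPKM in the control iPSCs, and the groups overlapped. Without YAP-culture iPSC replicate 3 it was called higher against that group, at 1.24 (adjusted p = 0.00172). Ephb1 was below the filter.

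EphA receptors, which bind mainly ephrin-A ligands, summed to 9.72, 10.005 and 10.5 FPKM in the YAP colonies, 13.8, 12.2 and 22.1 FPKM in the YAP-culture iPSCs and 15.99, 15.8 and 14.1 FPKM in the control iPSCs. None of the 3 tested members rose in either colony comparison. Epha1 (ENSMUSG00000029859, chromosome 6, 42358487 to 42373268) was listed at 0 in all 3 YAP colonies, and had 3.92, 3.48 and 6.28 FPKM in the YAP-culture iPSCs and 4.81, 3.96 and 4.29 FPKM in the control iPSCs. An exact 0 in these files can be a failed estimate, and the locus of the neighbouring gene Zyx overlaps that of Epha1. Zyx had 16.5 FPKM in the YAP colonies, 3.10 FPKM in the YAP-culture iPSCs and 5.91 FPKM in the control iPSCs. Epha1 was called lower in both comparisons, with log2 fold changes of -2.44 and -2.42, which for a group at 0 depend on the added 1 FPKM. Both calls were lost with 5 FPKM added, at -0.92 and -0.90. Epha2, the most abundant EphA receptor in the colonies, averaged 6.01 ± 1.73 FPKM in the YAP colonies, 8.26 ± 3.95 FPKM in the YAP-culture iPSCs and 7.54 ± 1.15 FPKM in the control iPSCs, and was not called. Epha4, which binds ephrins of both classes, averaged 3.84 ± 1.34 FPKM in the YAP colonies, 2.51 ± 0.202 FPKM in the YAP-culture iPSCs and 2.61 ± 0.281 FPKM in the control iPSCs, with all colonies above all iPSCs but no call. The other 6 EphA genes, on 7 rows, were below the filter, at no more than 0.502 FPKM in any library.

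**Figure D2:**
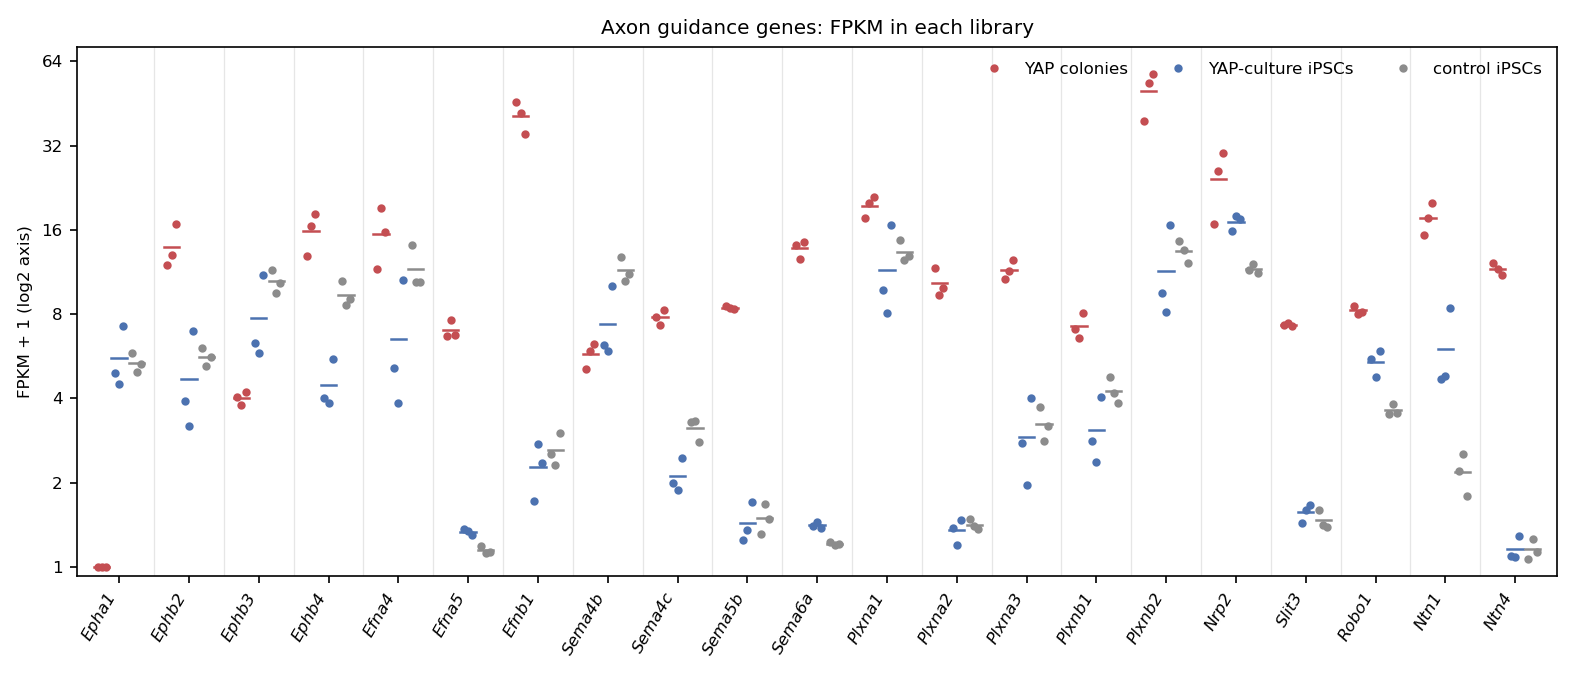
FPKM + 1 on a log2 axis (y) in each library for the 20 genes named by level and call and for Epha1 (x axis). Red points are the YAP colonies, blue points the YAP-culture iPSCs and grey points the control iPSCs, and short lines are group means. The 3 colonies of Efnb1 sit at 34.3 to 44.6 FPKM, those of Ntn4 at 10.04 to 11.2 FPKM, and the colonies of Epha1 lie on the floor of the plot at 0 FPKM.

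Semaphorins rose in some classes and not in others. Of the 12 tested members of classes 3 to 7, Sema3e, Sema4c, Sema5b and Sema6a rose in both colony comparisons and Sema6c was called lower in both. Sema6a (chromosome 18, 47235598 to 47368870), a membrane protein that binds plexin-A2 and plexin-A4, had 13.1, 11.6 and 13.5 FPKM in the YAP colonies, 0.398, 0.445 and 0.379 FPKM in the YAP-culture iPSCs and 0.226, 0.195 and 0.211 FPKM in the control iPSCs. No iPSC library was above 0.445 FPKM, and the log2 fold changes were 3.28 (SE 0.11, adjusted p = 3.99e-08) and 3.50 (SE 0.11, adjusted p = 2.74e-08). Sema5b, a membrane protein that carries thrombospondin repeats, had 7.55, 7.38 and 7.31 FPKM in the YAP colonies, 0.243, 0.354 and 0.703 FPKM in the YAP-culture iPSCs and 0.305, 0.683 and 0.486 FPKM in the control iPSCs. Its colony libraries were close to each other and above all iPSCs, with log2 fold changes of 2.57 (SE 0.15, adjusted p = 1.38e-06) and 2.50 (SE 0.15, adjusted p = 1.54e-06). A pseudogene row, Gm5963, lies over the Sema5b locus and held 20.2 FPKM in the YAP colonies, 24.1 FPKM in the YAP-culture iPSCs and 17.5 FPKM in the control iPSCs. Sema4c, a ligand of plexin-B2, had 6.84, 6.32 and 7.27 FPKM in the YAP colonies, 0.989, 0.881 and 1.44 FPKM in the YAP-culture iPSCs and 2.29, 2.32 and 1.80 FPKM in the control iPSCs. The 3 groups were apart, with log2 fold changes for the colonies of 1.90 (SE 0.14, adjusted p = 4.04e-06) and 1.32 (SE 0.14, adjusted p = 3.76e-05). Sema3e, a secreted ligand of plexin-D1, had lower values, at 3.49 ± 0.511 FPKM in the YAP colonies, 0.722 ± 0.0702 FPKM in the YAP-culture iPSCs and 0.988 ± 0.102 FPKM in the control iPSCs, with log2 fold changes of 1.38 and 1.17.

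Other class 4 semaphorins, which are membrane proteins, averaged below the control iPSCs in the colonies. Sema4b had 4.07, 4.92 and 5.27 FPKM in the YAP colonies, 5.19, 4.91 and 9.11 FPKM in the YAP-culture iPSCs and 11.8, 9.50 and 10.1 FPKM in the control iPSCs. The colonies lay below the control iPSCs and overlapped the YAP-culture iPSCs. The difference from the control iPSCs was -0.997 (SE 0.20, adjusted p = 0.00262) on the log2 scale, so it sat on the threshold: it was just short of it here and past it, at -1.02 to -1.06, without YAP colony replicate 2 or 3 or control iPSC replicate 2 or 3. Sema4d, the ligand of plexin-B1, averaged 7.45 ± 1.46 FPKM in the YAP colonies, 5.77 ± 0.488 FPKM in the YAP-culture iPSCs and 8.29 ± 0.776 FPKM in the control iPSCs, and was not called. Sema4g averaged 3.96 ± 0.764 FPKM in the YAP colonies, 6.56 ± 2.67 FPKM in the YAP-culture iPSCs and 8.20 ± 0.921 FPKM in the control iPSCs, with all colonies below all iPSCs and no call. Without YAP colony replicate 1 it was called lower against the control iPSCs, at -1.01. As a whole, class 4 summed to 24.4 ± 1.98 FPKM in the YAP colonies, 22.7 ± 6.11 FPKM in the YAP-culture iPSCs and 31.4 ± 2.95 FPKM in the control iPSCs.

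Low semaphorins that were called are named after their values were seen. Sema6c, a membrane semaphorin, had 1.78, 0.896 and 0.534 FPKM in the YAP colonies, 2.92, 3.09 and 3.49 FPKM in the YAP-culture iPSCs and 4.38, 2.60 and 2.46 FPKM in the control iPSCs. It fell by small margins, with log2 fold changes of -1.05 and -1.02. Leaving out YAP colony replicate 3 took it to -0.86 and -0.82, below the threshold. The call against the YAP-culture iPSCs was lost without their replicate 3 as well, with a value just inside -1, and the call against the control iPSCs was also lost without YAP colony replicate 2 (-0.98) or control iPSC replicate 1 (-0.82). Quantile normalization ended both calls, at -0.94 and -0.80, and the call against the control iPSCs was also lost under median-ratio scaling (just inside -1) and under the GC correction, at -0.72 (adjusted p = 0.0745). Sema7a, a lipid-anchored semaphorin that binds plexin-C1 and integrins, averaged 0.298 ± 0.133 FPKM in the YAP colonies, 1.13 ± 0.562 FPKM in the YAP-culture iPSCs and 1.72 ± 0.288 FPKM in the control iPSCs. It fell against the control iPSCs, with a log2 fold change of -1.06, and -0.99 without control iPSC replicate 3, which ends the call. Quantile normalization gave -0.50 (adjusted p = 0.0553) and the GC correction -0.79, not called in either. Sema3f, the secreted ligand of neuropilin-2, spread widely, with 5.003, 2.04 and 0.878 FPKM in the YAP colonies, 3.33, 2.12 and 2.75 FPKM in the YAP-culture iPSCs and 5.45, 2.62 and 4.69 FPKM in the control iPSCs. Colony replicate 1 was the highest of its group, and without it the value against the control iPSCs was -1.10 (adjusted p = 0.0181), a call that the fit of all libraries did not make.

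Plexins, the signalling receptors of semaphorins, had the largest summed level of any family in the colonies, with 83.5, 96.6 and 105 FPKM in the YAP colonies, 22.4, 22.9 and 39.3 FPKM in the YAP-culture iPSCs and 35.3, 30.5 and 29.4 FPKM in the control iPSCs. Of 6 tested plexin genes, 4 rose and none fell against the YAP-culture iPSCs, and 3 rose and none fell against the control iPSCs. Plxnb2 (ENSMUSG00000036606, chromosome 15, 89155549 to 89171120), the receptor of several class 4 semaphorins, was the most abundant guidance gene in the colonies. It had 38.2, 52.7 and 56.9 FPKM in the YAP colonies, 8.48, 7.16 and 15.7 FPKM in the YAP-culture iPSCs and 13.6, 12.5 and 11.2 FPKM in the control iPSCs. The colonies exceeded every iPSC library, with log2 fold changes of 2.19 (SE 0.26, adjusted p = 1.03e-04) and 1.89 (SE 0.26, adjusted p = 2.51e-04). Plxna2 had 10.7, 8.34 and 8.95 FPKM in the YAP colonies, 0.377, 0.200 and 0.469 FPKM in the YAP-culture iPSCs and 0.479, 0.405 and 0.366 FPKM in the control iPSCs. This receptor of Sema6a was at most 0.479 FPKM in any iPSC library, and its log2 fold changes were 2.94 (SE 0.13, adjusted p = 2.74e-07) and 2.86 (SE 0.13, adjusted p = 2.92e-07). The X-linked Plxna3, a receptor of secreted semaphorins, had 9.69, 10.4 and 11.5 FPKM in the YAP colonies, 1.77, 0.967 and 3.01 FPKM in the YAP-culture iPSCs and 2.74, 1.81 and 2.18 FPKM in the control iPSCs. Its colonies were above all iPSCs, with log2 fold changes of 2.04 (SE 0.24, adjusted p = 8.94e-05) and 1.84 (SE 0.24, adjusted p = 1.68e-04).

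Plxnb1, the receptor of Sema4d, had 6.05, 5.56 and 7.07 FPKM in the YAP colonies, 1.82, 1.37 and 3.04 FPKM in the YAP-culture iPSCs and 3.75, 3.19 and 2.85 FPKM in the control iPSCs. It rose against the YAP-culture iPSCs, with a log2 fold change of 1.26 (SE 0.20, adjusted p = 5.18e-04), while 0.76 (SE 0.20, adjusted p = 0.00852) against the control iPSCs was under the fold threshold. Plxna1, a main partner of neuropilins, had 16.7, 18.97 and 19.9 FPKM in the YAP colonies, 8.73, 7.07 and 15.6 FPKM in the YAP-culture iPSCs and 13.7, 11.5 and 11.9 FPKM in the control iPSCs. The colonies lay above all iPSCs, but YAP-culture iPSC replicate 3 came close to them, and the log2 fold changes were 0.83 and 0.54, not called. Without that library the first was called, at 1.14 (adjusted p = 1.55e-04). Plxnd1, the receptor of Sema3e, was below 2 FPKM except in YAP-culture iPSC replicate 2, with 1.81, 0.338 and 0.200 FPKM in the YAP colonies, 0.434, 5.17 and 0.849 FPKM in the YAP-culture iPSCs and 0.639, 0.607 and 0.533 FPKM in the control iPSCs. Plxna4, Plxnb3 and Plxnc1 were below the filter, and Plxna4 was listed at 0 in all colonies.

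Neuropilins, the co-receptors of secreted semaphorins and of vascular endothelial growth factors, were both higher in the colonies than in the control iPSCs. Nrp2 had 15.8, 24.99 and 29.1 FPKM in the YAP colonies, 14.9, 16.9 and 16.5 FPKM in the YAP-culture iPSCs and 10.5, 11.1 and 10.2 FPKM in the control iPSCs. YAP colony replicate 1 lay within the range of the YAP-culture iPSCs, where the log2 fold change was 0.47 (SE 0.19, adjusted p = 0.0652), not called. Against the control iPSCs it rose by 1.03 (SE 0.19, adjusted p = 0.00161), and leaving out YAP colony replicate 2 or 3 brought it to 0.96 or 0.85, which ends the call. Nrp1 had 1.38, 1.41 and 1.63 FPKM in the YAP colonies, 0.0494, 0.0858 and 0.236 FPKM in the YAP-culture iPSCs and 0.0419, 0.0747 and 0.0645 FPKM in the control iPSCs. All colonies were above all iPSCs, but the mean over all libraries was below the filter. When every row above 0 was tested, Nrp1 was called higher, with log2 fold changes of 1.14 (adjusted p = 1.14e-05) and 1.22 (adjusted p = 7.38e-06).

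**Figure D3:**
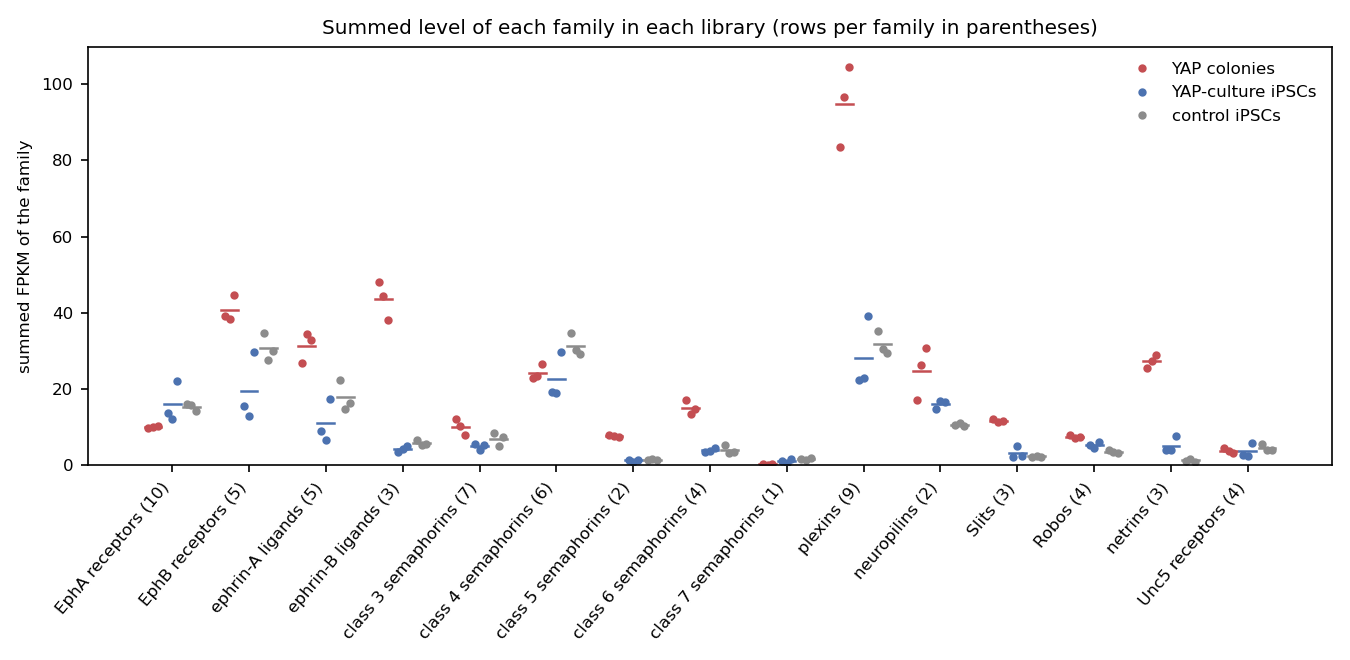
Summed FPKM (y axis) of each family in each library, with the number of rows per family in parentheses (x axis). Red points are the YAP colonies, blue points the YAP-culture iPSCs and grey points the control iPSCs, and short lines are group means. Plexins reach 83.5 to 105 FPKM in the YAP colonies and ephrin-B ligands 38.3 to 48.03 FPKM. EphA receptors, class 4 and class 7 semaphorins and Unc5 receptors have lower means in the colonies than in the control iPSCs.

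Slits, the secreted repellents, summed to 12.2, 11.3 and 11.6 FPKM in the YAP colonies, 2.27, 5.05 and 2.43 FPKM in the YAP-culture iPSCs and 2.30, 2.46 and 2.24 FPKM in the control iPSCs. Slit3 had 6.34, 6.44 and 6.23 FPKM in the YAP colonies, 0.434, 0.591 and 0.668 FPKM in the YAP-culture iPSCs and 0.596, 0.415 and 0.382 FPKM in the control iPSCs. The colony values were nearly the same in all 3 libraries and above every iPSC library, with log2 fold changes of 2.23 (SE 0.12, adjusted p = 6.15e-07) and 2.33 (SE 0.12, adjusted p = 4.59e-07). Slit2 had 4.89, 3.92 and 3.86 FPKM in the YAP colonies, 1.41, 3.85 and 1.51 FPKM in the YAP-culture iPSCs and 1.44, 1.79 and 1.45 FPKM in the control iPSCs. YAP-culture iPSC replicate 2 nearly reached the colony range, so the log2 fold change against that group was 0.76 (SE 0.25, adjusted p = 0.0296), not called, and 1.08 (adjusted p = 2.81e-04) without that library. Against the control iPSCs Slit2 rose by 1.03 (SE 0.25, adjusted p = 0.00702), and this call was lost without YAP colony replicate 1 (0.94), control iPSC replicate 1 (0.99) or control iPSC replicate 3 (just under 1). Slit1 was below the filter, at 0.937 to 1.54 FPKM in the YAP colonies, 0.253 to 0.601 FPKM in the YAP-culture iPSCs and 0.253 to 0.408 FPKM in the control iPSCs.

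Robo1 was the one Robo receptor past the filter. It had 7.56, 7.01 and 7.17 FPKM in the YAP colonies, 4.54, 3.78 and 4.93 FPKM in the YAP-culture iPSCs and 2.52, 2.80 and 2.54 FPKM in the control iPSCs. The groups made 3 separate steps, with log2 fold changes for the colonies of 0.61 (SE 0.11, adjusted p = 0.00109), not called, and 1.19 (SE 0.11, adjusted p = 1.69e-05), called. The YAP-culture iPSCs were above the control iPSCs by 0.58 (SE 0.11, adjusted p = 0.0284), which passed the p threshold and not the fold threshold. Robo2 and Robo3, neuronal receptors, were at most 0.166 and 0.588 FPKM in any library. Robo4, an endothelial member, was at most 0.0182 FPKM in the YAP colonies, against 0.433 to 0.883 FPKM in the YAP-culture iPSCs and 0.437 to 0.710 FPKM in the control iPSCs.

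Netrins, secreted proteins related to laminins, rose in the colonies: both tested members were called in both comparisons. Ntn1 (ENSMUSG00000020902, chromosome 11, 68209364 to 68400823), the ligand of Dcc and Unc5 receptors, had 14.3, 16.6 and 18.9 FPKM in the YAP colonies, 3.68, 3.83 and 7.43 FPKM in the YAP-culture iPSCs and 1.20, 1.53 and 0.793 FPKM in the control iPSCs. Again the 3 groups did not overlap, with the YAP-culture iPSCs in the middle. The log2 fold changes of the colonies were 1.61 (SE 0.24, adjusted p = 4.12e-04) and 3.02 (SE 0.24, adjusted p = 7.37e-06). Ntn4, which binds laminin in basement membranes, had 11.2, 10.6 and 10.04 FPKM in the YAP colonies, 0.0974, 0.0846 and 0.290 FPKM in the YAP-culture iPSCs and 0.0689, 0.259 and 0.133 FPKM in the control iPSCs. Both iPSC groups were near 0 and overlapped, and the colonies differed from them by 3.33 (SE 0.13, adjusted p = 9.71e-08) and 3.33 (SE 0.13, adjusted p = 8.65e-08). Ntn5 was at most 0.144 FPKM in any library.

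Netrin receptors were low or moved in both directions. Unc5b, a repulsive receptor known from vessels, had 1.52, 1.06 and 1.21 FPKM in the YAP colonies, 2.56, 1.98 and 5.28 FPKM in the YAP-culture iPSCs and 5.06, 3.90 and 3.74 FPKM in the control iPSCs. The colonies were below all iPSC libraries, and it fell against the control iPSCs, with a log2 fold change of -1.21 (SE 0.26, adjusted p = 0.00323). Against the YAP-culture iPSCs the value was -0.85, not called, and -1.07 (adjusted p = 0.00651) without YAP-culture iPSC replicate 2. Under the GC correction the calls changed places, with -1.08 against the YAP-culture iPSCs, called, and -0.94 against the control iPSCs, not called. Unc5d had 2.62, 2.42 and 2.09 FPKM in the YAP colonies, 0.0124, 0.0161 and 0.0567 FPKM in the YAP-culture iPSCs and 0.0332, 0.0283 and 0.0244 FPKM in the control iPSCs. It was below the filter through the iPSCs, and with every row tested it was called higher, by 1.71 (adjusted p = 1.02e-06) and 1.71 (adjusted p = 9.55e-07). Dcc, the attractive netrin receptor, was below the filter at 0.0633 ± 0.0632 FPKM in the YAP colonies, 0.103 ± 0.0270 FPKM in the YAP-culture iPSCs and 0.0275 ± 0.00351 FPKM in the control iPSCs. Its relative neogenin (Neo1) averaged 12.9 ± 0.305 FPKM in the YAP colonies, 6.04 ± 0.427 FPKM in the YAP-culture iPSCs and 5.06 ± 0.357 FPKM in the control iPSCs, and it rose against the control iPSCs, with a log2 fold change of 1.20 (SE 0.09, adjusted p = 5.85e-06). Against the YAP-culture iPSCs the value was 0.98, just under the fold threshold.

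The 28 rows below the filter had means of 0.00150 to 0.865 FPKM over all libraries, and their highest single value was 2.62 FPKM, of Unc5d in the YAP colonies. Besides Unc5d, Nrp1 and Slit1, the secreted semaphorins Sema3c and Sema3d, the membrane semaphorin Sema6d, the receptor Epha3 and the receptor Unc5c lay above all iPSC libraries in all colonies. Sema6d had 2.20, 0.915 and 0.791 FPKM in the YAP colonies and at most 0.0492 FPKM in any iPSC library, and it was called higher in both comparisons when every row was tested. Sema3c had 1.09, 0.925 and 0.915 FPKM in the YAP colonies, 0.0317, 0.381 and 0.0414 FPKM in the YAP-culture iPSCs and 0.116, 0.0769 and 0.179 FPKM in the control iPSCs, with no call even then. In the other direction, Sema4f, Sema5a, Sema6b, Epha10, Epha7, Epha8, Plxna4, Plxnb3, Robo4 and Unc5a lay below all iPSC libraries in all colonies. Epha6, Epha8, Plxna4 and one Epha5 row were listed at 0 in every colony library.

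**Figure D4:**
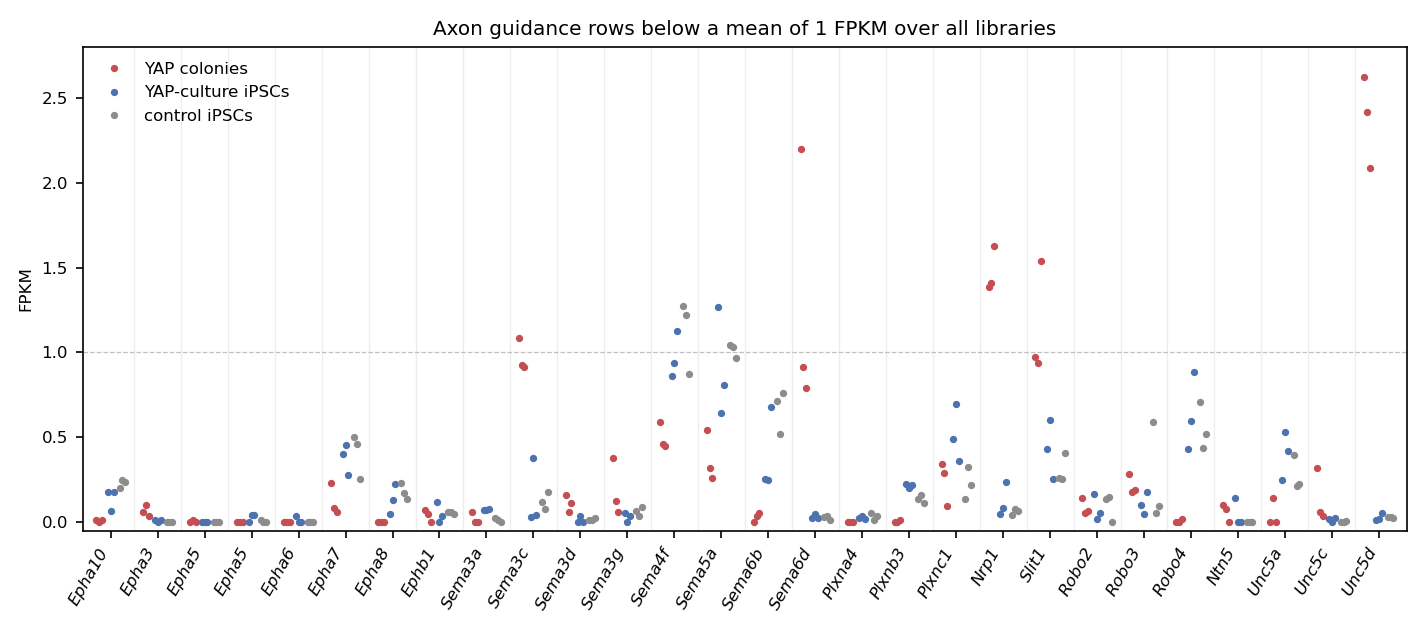
FPKM (y axis) in each library for the 28 guidance rows whose mean over the 9 libraries was below 1 FPKM (x axis). Red points are the YAP colonies, blue points the YAP-culture iPSCs and grey points the control iPSCs, and the dashed line marks 1 FPKM. Unc5d reaches 2.09 to 2.62 FPKM and Nrp1 1.38 to 1.63 FPKM in the YAP colonies, while all iPSC libraries of both genes stay at or below 0.236 FPKM.

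The kinds of iPSC differed in few guidance genes. In the YAP-culture iPSCs against the control iPSCs, Ntn1 rose, Ephb4 fell and 38 of 40 tested members were not called, while 1.39% of all tested rows were called, 0.507% higher and 0.884% lower. The median log2 fold change was -0.21 for the members and -0.03 for all tested rows. All YAP-culture iPSCs lay above all control iPSCs for 6 members, against 16.6% of all tested rows, and below them for 7, against 13.8%. Ntn1 averaged 4.98 ± 2.13 FPKM in the YAP-culture iPSCs and 1.17 ± 0.367 FPKM in the control iPSCs, with a log2 fold change of 1.42 (SE 0.24, adjusted p = 0.0234). Ephb4 averaged 3.46 ± 0.912 FPKM in the YAP-culture iPSCs and 8.37 ± 0.988 FPKM in the control iPSCs, with a log2 fold change of -1.08 (SE 0.18, adjusted p = 0.0220).

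Neither of these calls held in every fit. With the iPSC groups fitted alone, the adjusted p was 0.0963 for Ntn1 and 0.0764 for Ephb4. Without control iPSC replicate 1 it was 0.0971 for Ntn1 and 0.102 for Ephb4, and without control iPSC replicate 3 it was 0.105 and 0.0937. Ntn1 was also lost without YAP colony replicate 2 (0.0541), and Ephb4 without YAP-culture iPSC replicate 1 (0.0766) or replicate 2 (0.0644). YAP-culture iPSC replicate 3, the library nearest to the control iPSCs, worked the other way: without it Ephb6 and Efna4 fell as well, at -1.02 (adjusted p = 0.0124) and -1.37 (adjusted p = 0.00704), and the calls over all rows were 1048 in place of 192. Transcripts of the tested members had a median GC content of 56.8%, against 49.4% over all tested rows, and under the GC correction Ephb4 was -0.59 on the log2 scale, not called.

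Other genes of these pathways, from a list of receptors, adaptors and cytoskeletal effectors that act with the members, also rose more often than they fell in the colonies. Of 71 tested, 32 rose and 3 fell in the YAP colonies against the YAP-culture iPSCs, and 30 rose and 5 fell against the control iPSCs. Over all tested rows, 15.8% were called higher and 14.5% lower against the YAP-culture iPSCs, and 14.9% and 17% against the control iPSCs. The median log2 fold changes of the 71 were 0.97 and 0.83, against 0.02 and -0.07 over all tested rows. The largest log2 fold change was that of Dpysl3, of the collapsin response mediator family, which acts in semaphorin signalling. It had 329.9, 303 and 316 FPKM in the YAP colonies, 9.44, 12.1 and 10.1 FPKM in the YAP-culture iPSCs and 3.78, 5.21 and 3.53 FPKM in the control iPSCs. The colonies were far above the rest, with log2 fold changes of 4.78 (SE 0.14, adjusted p = 2.62e-08) and 5.95 (SE 0.14, adjusted p = 9.72e-09). Its relative Dpysl5 rose by 3.89 and 4.02, and Ablim1, an actin-binding protein whose worm relative acts in netrin signalling, by 3.02 and 4.14. Among those that fell, Rgs3, which binds the tail of ephrin-B, was -1.84 and -2.13. Chn2, which inactivates Rac, fell against the YAP-culture iPSCs, with a log2 fold change of -1.36, and was listed at 0 in all colonies. Chn1, an effector of Eph receptors that also inactivates Rac, fell against the control iPSCs, with a log2 fold change of -1.53. In the YAP-culture iPSCs against the control iPSCs 2 of the 71 were called, Dpysl3 at 1.17 (SE 0.14, adjusted p = 0.00728) and Ablim1 at 1.12 (SE 0.16, adjusted p = 0.0122), both higher.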

How the data were processed

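The authors deposited FPKM per gene for all 9 libraries, with gene names and loci in mm10. Extraction used Trizol and library preparation a stranded mRNA kit, per the labels' protocols. TopHat and Cufflinks are named in the submitters' processing notes, and their versions and settings are not given in the sources used here. Libraries were matched to columns by their labels. Deposited locus starts count from 0, since 1 added to them equals the GENCODE M21 start in 90.0% of rows, and are printed with 1 added. Depth could not be had from FPKM, so no counting error is given.

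The log2(FPKM + 1) values of the 13808 rows whose mean reached 1 FPKM were fitted with limma 3.58.1 under R 4.3.3. The 3 group means shared 1 fit, the prior on the variance followed a trend with level, and the two-sided p-values were adjusted by Benjamini-Hochberg over all rows. The fit was tested on simulated data. No p was computed over the gene list. The members, the gene lists and the tests were chosen with earlier results of these data known. Values in every library are given for members called in some comparison with a highest group mean of at least 5 FPKM and for uncalled members with at least 10 FPKM in some group. Some marker and pathway genes are counted in their lists and not reported here by name. Other members are named by family, as listed at 0, as below the filter, or after their values were seen.

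Alternatives were pseudocounts of 0.1 and 5, no filter, a minimum mean of 5 FPKM, median-ratio scaling, quantile normalization, the 2 compared groups alone, a replicate block and each library left out. Chosen after seeing the data were the loss of replicate 3 of both iPSC groups together and a loess correction per library on transcript GC content. Each of the 36 pairs of libraries differed. Figures were drawn with matplotlib 3.10.9.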

Additional observations from a re-analysis of the deposited data

How the results depend on the processing

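All 17 members called higher in the colonies against the YAP-culture iPSCs, and 14 of 16 against the control iPSCs, stayed called whichever single library was left out, and 17 and 15 did so under median-ratio scaling, quantile normalization and the GC correction. The filter used all 9 libraries in each of these fits, so a member that passed it through its colony values could not drop out. Of the called-lower members, 1 of 2 and 4 of 6 stayed called with each library left out, and 1 of 2 and 2 of 6 under the scalings and the GC correction.

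In the order higher and lower against the YAP-culture iPSCs, then higher and lower against the control iPSCs (17, 2, 16 and 6 as reported), the member counts were 21, 7, 17 and 8 with a pseudocount of 0.1, 12, 0, 10 and 0 with 5, and 6, 0, 5 and 1 with a minimum mean of 5 FPKM, where fewer genes were tested. A pseudocount of 5 shrinks fold changes by construction. The lower counts were 5 and 2 under the GC correction, 4 against the control iPSCs under quantile normalization, and 1 against the YAP-culture iPSCs without replicate 3 of both iPSC groups, where 1 member was higher and 3 lower between the iPSC groups. Calls over all rows were 2108 and 2259 with a pseudocount of 5 and 2421 and 2599 with the higher minimum (4184 and 4396 as reported).

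Between the iPSC groups (1 member higher, 1 lower and 192 rows as reported), 0 were higher and 0 lower with a pseudocount of 5 (57 rows) and with the 2 groups alone (36 rows), 0 lower under quantile normalization and the GC correction, 114 rows passed with the higher minimum and 1042 without both replicates 3. Leaving out 1 library gave 17 to 20 higher and 1 to 5 lower members against the YAP-culture iPSCs, 15 to 16 and 5 to 8 against the control iPSCs, and 0 to 1 and 0 to 3 between the iPSC groups, with 52 to 1048 rows called, the most without YAP-culture iPSC replicate 3.

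For the 40 tested members, 2202 log2 fold changes under alternatives were had: 2050 kept direction and side, 56 lost and 41 gained a call, and 55 changed sign, none of them called. Of the sign changes, 45 were between the iPSC groups. The other 10 were in the colony comparisons, for Plxnd1 and Sema3f against the YAP-culture iPSCs and Plxnd1, Sema4a, Sema4d, Efna1 and Efna2 against the control iPSCs. Plxnd1 was 0.021 against the YAP-culture iPSCs without their replicate 2. Under the GC correction Ephb4 (1.02), Plxnb1 (1.03) and Efna3 (1.12) were called higher against the control iPSCs, Slit2 (0.98) no longer was, and Ephb3 (-1.05) and Efnb3 (-1.12) were called lower against the YAP-culture iPSCs. Quantile normalization called Sema4b (-1.09) lower against the control iPSCs and Ephb3 (-1.05) lower against the YAP-culture iPSCs.

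For the 20 members whose values are given by the rule on level and call, 16 of 1110 values changed sign, all between the iPSC groups. These were Sema5b (0.015) and Plxna2 (0.0061) under quantile normalization, Ntn4 (-0.088) without both replicates 3, and under the GC correction Sema5b (0.52), Ephb2 (0.015), Efnb1 (0.27), Plxna1 (0.16), Plxna3 (0.14) and Plxnb2 (0.15). With 1 library left out, the log2 fold change lay between -0.19 and 0.034 for Sema5b, -0.14 and 0.0070 for Plxna2, -0.46 and 0.049 for Plxna3, and -0.077 and 0.068 for Ntn4. The causes were not tested. Same-numbered replicates did not deviate together (correlations of -0.14 to 0.19), and the replicate block gave 17, 2, 16 and 6 members and 1 higher and 1 lower between the iPSC groups, with 4184, 4398 and 160 rows called.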
